A study of Mus musculus with 11 samples.

Results

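The protein-coding Zfp genes are the mouse genes whose symbol is Zfp followed by a number, taken here from chromosomes 1 to 19 of the GENCODE vM1 annotation (mm9 build), with Zfp42 left out. There were 332 such symbols among 21275 protein-coding symbols. After the 100-kb tiles with the highest signal in the no-Dox library were discarded, 318 Zfp genes of 20601 genes remained. The 14 members lost with those tiles were Zfp97, Zfp296, Zfp398, Zfp534, Zfp600, Zfp605, Zfp640, Zfp707, Zfp786, Zfp825, Zfp868, Zfp936, Zfp960 and Zfp964. Chromatin was measured at the transcription start site (TSS, 600 bp to either side) and over the last coding (CDS) exon, set against flanks lying 500 to 2000 bp beyond each end of it. A gene was called clustered when 5 or more Zfp genes lay within 500 kb. By this count 125 members were clustered, 113 were single and 80 were in between.

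The study followed newly made histone variants by ChIP-Seq, with 11 libraries and 1 library per condition. Mouse ES cells of the KH2 line (129 X C57bl/6), which carry a tetracycline transactivator at ROSA26 and an HA-tagged cDNA beside the Col1A1 locus, were given 2 µg/ml doxycycline (Dox). In ES cells, HA-H3.3 was mapped 3 and 6 hours after Dox was added, and HA-MacroH2A2 (HA-Macro) before Dox and 3, 6 and 12 hours after it. HA-Macro was also mapped after 3, 6 and 12 hours in passage 2 MEFs, embryonic fibroblasts of the same genotype grown from E12.5 chimeric embryos and selected with puromycin against host cells. Total MacroH2A2 was mapped with an antibody to the protein itself in ES cells labelled as parental KH2 and in MEFs labelled as wild type, each library combining 2 replicates. The labels give these cells as untreated, while the study's text describes maps with this antibody from HA-Macro cells before and after Dox, so whether the signal includes induced HA-Macro is not settled here. ES cells were grown on feeder MEFs, which were depleted by pre-plating before Dox was added. The no-Dox ES cell library is the background for every other library, since neither HA-H3.3 nor the MEFs had a no-Dox control among the files used here. The study reports trace promoter signal without Dox and holds leaky HA-Macro expression to be its likely source, so this library may not be background alone. With 1 library per condition no test between conditions could be made. The 95% intervals are exact and cover counting error only, so that differences between cultures, and the spread among genes, lie outside them.

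Most Zfp proteins bind DNA through arrays of C2H2 zinc fingers, which are joined by short conserved linkers and are usually encoded together in the last exon. Many carry a KRAB box, which recruits TRIM28 and the histone methyltransferase SETDB1, and the family is known for silencing retroelements and imprinted loci. The 3′ exons of zinc finger genes are themselves a known site of H3K9 methylation and of H3.3 placed by ATRX and DAXX. H3.3 is the H3 variant deposited outside of replication, most actively at promoters, whereas MacroH2A2 carries a large non-histone domain and is commonly described as repressive. The study found MacroH2A2 at promoters of expressed genes in ES cells. It names olfactory receptor and zinc finger factor genes among the repressed families that lack it.

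The annotation bore out the label of the group. Translation of the annotated transcripts gave C2H2 fingers in all but 14 of the 318 members, with a median of 10 fingers per gene and a maximum of 36. Of 3239 fingers, 84.3% were encoded in the last CDS exon, which had a median length of 1305.5 bp against 167 bp in the other protein-coding genes. A KRAB box was matched in 134 members. It was present in 72.8% of the clustered genes, in 35.0% of those in between and in 13.3% of the single genes. The KRAB box was found by a sequence pattern that misses diverged boxes, and Zfp57, which is known to hold one, was not matched. Members with a KRAB box had 98.1% of their fingers in the last exon, against 69.9% in those without. The last exon held a median of 48.2% GC over all members, 43.5% with KRAB and 53.1% without. Flanks held 42.6%.

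The repeated structure of these exons can be seen in the sequence. A pattern for the DNA of the linker between fingers, read on the coding strand, occurred in the last CDS exon of 222 of the 318 Zfp genes (69.8%), with a median of 4 matches. It occurred in 95.5% of members with KRAB and 51.1% of those without, in 2.36% of all protein-coding genes and in 0.185% of olfactory receptor (Olfr) genes. Below are 4 stretches of 240 bases from last CDS exons, each the stretch of its exon with the most HA-H3.3 6 h intervals, read from the mm9 genome 5′ to 3′ on the coding strand. Capitals mark the linker pattern. Zfp629 and Zfp777 had the highest exon-over-flank ratios in HA-H3.3 6 h with 1 interval added to each count. Zfp11 is shown as a member of middling GC with high H3.3, and Zfp157 as a KRAB member with a low ratio (both chosen after their values were seen). The stretches lie on chr7:134754937-134755176 (minus strand), chr6:47974854-47975093 (minus), chr5:130162777-130163016 (minus) and chr5:138897103-138897342 (plus).
Zfp629: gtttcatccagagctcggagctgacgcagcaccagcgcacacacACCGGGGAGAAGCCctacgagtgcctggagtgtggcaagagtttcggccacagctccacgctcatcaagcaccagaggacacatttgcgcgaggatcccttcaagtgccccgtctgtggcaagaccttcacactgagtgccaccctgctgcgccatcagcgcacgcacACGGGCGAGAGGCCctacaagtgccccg
Zfp777: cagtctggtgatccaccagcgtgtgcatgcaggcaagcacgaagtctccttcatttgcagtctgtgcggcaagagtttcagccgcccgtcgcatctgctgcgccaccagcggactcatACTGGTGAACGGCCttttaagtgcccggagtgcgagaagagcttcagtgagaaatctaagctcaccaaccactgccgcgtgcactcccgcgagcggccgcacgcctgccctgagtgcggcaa
Zfp11: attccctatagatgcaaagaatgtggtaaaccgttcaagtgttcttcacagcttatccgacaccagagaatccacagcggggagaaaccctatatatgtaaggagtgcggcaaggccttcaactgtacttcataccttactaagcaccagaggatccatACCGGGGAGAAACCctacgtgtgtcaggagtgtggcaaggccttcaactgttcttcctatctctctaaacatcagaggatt
Zfp157: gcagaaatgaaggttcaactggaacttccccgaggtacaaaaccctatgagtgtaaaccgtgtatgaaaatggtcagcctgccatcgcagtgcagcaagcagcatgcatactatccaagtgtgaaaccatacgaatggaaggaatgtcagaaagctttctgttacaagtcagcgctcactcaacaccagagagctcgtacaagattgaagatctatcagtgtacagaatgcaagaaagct
The Zfp629 stretch held 46 HA-H3.3 6 h intervals and 62.5% GC, and the Zfp777 stretch held 40 intervals and 60.4% GC. The Zfp11 stretch held 17 intervals at 46.7% GC. The Zfp157 stretch held 1 interval at 45% GC and has no linker match. With so few intervals in that exon, which stretch is shown is nearly arbitrary. Over 210 members, the exon-over-flank ratio in HA-H3.3 6 h had a Pearson's r of 0.13 with the count of TGEKP linkers. With the count of fingers it was 0.08. In HA-H3.3 3 h, over 91 members, the values were -0.06 and -0.03.
At the promoters, the share of the HA-H3.3 library at Zfp genes was larger at 6 than at 3 hours, while that of HA-Macro in ES cells was largest at 3 hours and by 12 hours was no higher than without Dox. Median HA-H3.3 at the TSS of the 318 Zfp genes was 1.43 p.p.m. of the library at 3 hours (quartiles 0.796 and 2.55) and 2.50 p.p.m. at 6 hours (1.25 and 4.11). The other 19118 protein-coding genes (those outside the Zfp, Olfr and Zbtb, Zscan and Zkscan families) had medians of 1.43 and 2.02 p.p.m. HA-Macro in ES cells started from a Zfp median of 0.615 p.p.m. in the no-Dox library, reached 0.999 p.p.m. by 3 hours, and stood at 0.740 p.p.m. by 6 hours and 0.583 p.p.m. by 12 hours. The 12 h median of the Zfp genes was thus below that of the no-Dox library, and their quartiles overlapped widely (0.408 and 0.816 against 0.439 and 0.879). The other genes had 0.615, 0.999, 0.801 and 0.700 p.p.m. In MEFs, HA-Macro medians at Zfp genes were 0.382, 0.393 and 0.311 p.p.m. at 3, 6 and 12 hours, against 0.573, 0.589 and 0.467 p.p.m. at the other genes. Total MacroH2A2 was 0.845 p.p.m. in ES cells and 0.422 p.p.m. in MEFs, against 1.09 and 0.633 p.p.m. In log2 terms the Zfp median lay 0.31 above that of other genes for HA-H3.3 6 h, and for total MacroH2A2 it lay lower, at -0.36 in ES cells and -0.58 in MEFs. Among genes with 20 or more intervals these differences came to 0.04 for HA-H3.3 6 h and 0.00 for total MacroH2A2 in ES cells. That minimum was set on the same counts that are compared, which keeps only the upper part of each group. It therefore cannot show whether the difference holds in well-covered genes.

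The profile around the gene start showed the same time course against local background. In the HA-H3.3 libraries the Zfp TSS windows held 2.75 and 3.35 times the density found 2 to 4 kb upstream (log2 1.46, 1.38 to 1.54, and 1.74, 1.69 to 1.80), with the mean profile peaking 250 bp downstream of the TSS. HA-Macro in ES cells stood at a log2 ratio of 0.82 (0.77 to 0.87) at 3 hours, 0.38 (0.33 to 0.44) at 6 hours and 0.03 (-0.04 to 0.09) at 12 hours, against 0.36 (0.28 to 0.44) without Dox. The other genes stood at 0.81, 0.44 and 0.18 at the 3 times, so the Zfp genes began level with them and ended lower. In MEFs the Zfp ratio was 0.01 at 3 hours, -0.09 at 6 hours and -0.33 (-0.40 to -0.25) at 12 hours. The promoters of Zfp genes therefore held less HA-Macro than their upstream DNA in MEFs at 12 hours, where the other genes stood at 0.08 (0.07 to 0.09). Total MacroH2A2 in ES cells stood at 0.97 (0.89 to 1.06) at Zfp genes and 1.01 (1.00 to 1.02) at other genes, nearly level by this measure. In MEFs it stood at 0.20 (0.13 to 0.28) and 0.39 (0.38 to 0.39).

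The share of the HA-Macro library in ES cells fell further from 3 to 12 hours at Zfp promoters than at other genes. Each value is a share of its library, so a spread of newly made HA-Macro over the rest of the genome cannot be told apart from its removal at these promoters. The median log2 ratio of 12 over 3 hours was -0.89 at the Zfp genes (quartiles -1.28 and -0.42) and -0.51 at the other genes (-1.05 and 0.11), with 1 interval added to each count. Pooled counts gave -0.88 (-0.94 to -0.82) at Zfp genes and -0.58 (-0.59 to -0.57) at other genes. Olfr genes, which are used in olfactory neurons, stood at 0.16. Among the 243 Zfp genes with 20 or more intervals over both libraries, 115 fell at least 2-fold (47.3%) and 0 rose at least 2-fold. Over all 14400 genes tested, 31.7% fell and 2.78% rose by this rule. Both steps contributed, with a Zfp median of -0.48 from 3 to 6 hours and -0.37 from 6 to 12 hours.

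The fall in share was seen in Zfp genes of each arrangement, with and without KRAB. The median was -0.84 in clustered genes, -0.84 in those in between and -0.95 in single genes, and -0.81 with KRAB and -0.95 without. Pooled counts of clustered genes (-0.87, -0.97 to -0.77) and single genes (-0.94, -1.04 to -0.84) had overlapping intervals. So did those of members with KRAB (-0.78, -0.88 to -0.68) and without (-0.93, -1.01 to -0.85). Overlap of such intervals does not show that the groups are alike. Median CpG content of the TSS window (observed over expected) was 0.516 with KRAB and 0.659 without. The related Zbtb, Zscan and Zkscan genes (58 genes) had a median of -0.80.

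**Figure D1:**
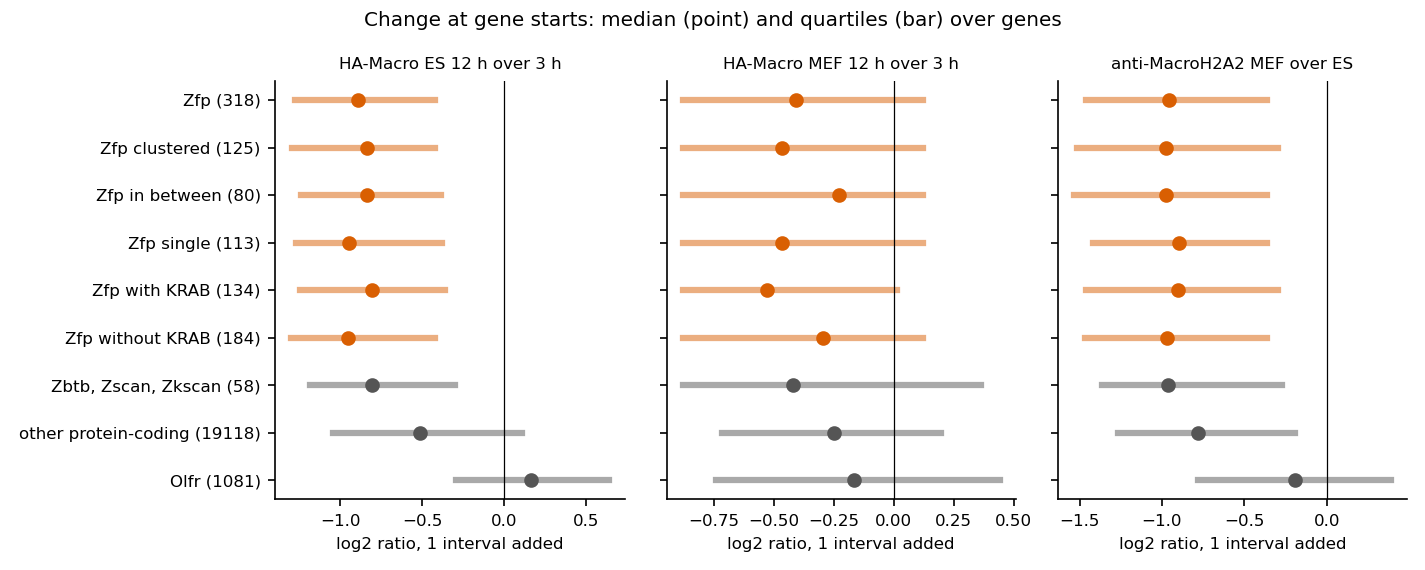
Log2 ratio of TSS intervals (1 interval added) for HA-Macro 12 over 3 h in ES cells, HA-Macro 12 over 3 h in MEFs and anti-MacroH2A2 MEF over ES, with the median over genes as a point and the quartiles as a bar for each gene group (number of genes in brackets). In ES cells all Zfp groups lie between -0.81 and -0.95, to the left of the other protein-coding genes (-0.51) and of Olfr genes (0.16).

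The difference from other genes was largest at promoters poor in CpG, among 3 classes of CpG content. CpG content (observed over expected in the TSS window) had a median of 0.596 in Zfp genes and 0.569 in other genes, and the fall was largest at high-CpG promoters in both. At a ratio of 0.6 or more, the 155 Zfp genes had a median change of -1.02 and the 8963 other genes -0.91. Between 0.4 and 0.6 the medians were -0.80 for 77 Zfp genes and -0.48 for 3067 others. Below 0.4 they were -0.63 for 86 Zfp genes and 0.12 for 7088 others, and pooled counts gave -0.63 (-0.77 to -0.50) against 0.10 (0.08 to 0.11). In that lowest class the Zfp median of HA-Macro was 0.749 p.p.m. at 3 hours and 0.466 p.p.m. at 12 hours. The other genes had 0.499 and 0.583 p.p.m., and both groups had 0.527 p.p.m. without Dox. CpG-poor Zfp promoters thus stood above other CpG-poor promoters at 3 hours and below them at 12 hours. HA-H3.3 at 6 hours was likewise higher at CpG-poor Zfp promoters (0.673 p.p.m., quartiles 0.312 and 1.80) than at other CpG-poor promoters (0.481 p.p.m., 0.192 and 1.06), with wide overlap.

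In MEFs the change from 3 to 12 hours was smaller and rested on few intervals. The Zfp median was -0.41 and that of other genes -0.25, with 1 interval added to each count. As the 12 h library is the deeper, that added interval lowers the ratio of genes with few intervals. Pooled counts, with none added, gave -0.30 (-0.40 to -0.20) at Zfp genes and -0.15 (-0.16 to -0.14) at other genes. Only 37 Zfp genes reached 20 intervals over both libraries, of which 4 fell and 3 rose at least 2-fold, where 5.12% and 2.74% of all 6762 genes tested did so. The Zfp TSS had a median of 4 intervals in the 3 h library of MEFs, so a change of this size in a single gene was not detectable at this depth. Among those 37 genes alone the median was -0.07, against -0.11 at the other genes that passed the same minimum, so the order of the groups turned.

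Total MacroH2A2 was lower at Zfp promoters in MEFs than in ES cells. The median log2 ratio of MEF over ES was -0.96 (quartiles -1.46 and -0.37) against -0.78 at other genes, and pooled counts gave -1.03 (-1.11 to -0.95) against -0.75. Of 93 Zfp genes with 20 or more intervals, 55 fell at least 2-fold and 0 rose, where 43.2% and 0.829% of all 8806 genes tested did so. In the CpG classes below 0.4, 0.4 to 0.6 and 0.6 or more, Zfp medians were -0.44, -0.78 and -1.13. Those of other genes were close, at -0.37, -0.78 and -1.04. Pooled counts gave -0.59, -1.03 and -1.15 against -0.25, -0.64 and -1.02. KRAB members (-0.90) and those without (-0.97) differed little. These too are shares of a library.

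HA-H3.3 at Zfp promoters rose from 3 to 6 hours by a median log2 of 0.54 (quartiles 0.08 and 0.94), against 0.37 at other genes, and by 0.71 in members with KRAB and 0.47 in those without. Of 234 Zfp genes with 20 or more intervals, 62 rose at least 2-fold and 0 fell, where 21.2% and 0.472% of all genes tested did so.

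Individual promoters differed widely around these medians. Among those with 20 or more intervals over both times, the steepest falls in HA-Macro were at Zfp828 (also known as Champ1, a protein of chromosome alignment), Zfp526, Zfp207 (BuGZ, a spindle assembly factor), Zfp865 and Zfp750 (an epidermal differentiation factor). Zfp828 had 12 intervals in the no-Dox library, then 20, 17 and 2 in the 3, 6 and 12 h libraries, and 12 over 3 hours gave a log2 of -3.42 (-6.56 to -1.38). Zfp526 went from 25 to 11 and 3 intervals, Zfp207 from 20 to 9 and 3, Zfp865 from 29 to 14 and 5, and Zfp750 from 20 to 5 and 4. All 5 ended below their own no-Dox count (7 in Zfp526, Zfp207 and Zfp750, 9 in Zfp865), in a 12 h library that is deeper than the no-Dox library. As the 5 were picked for a low 12 h share, this comparison carries no further weight. At the other end, Zfp647 held 13, 20 and 28 intervals at 3, 6 and 12 hours (log2 1.01, 0.01 to 2.08), against 5 without Dox. Zfp459, Zfp773, Zfp872 and Zfp738 came next with log2 ratios of 0.64 to 0.71, and the interval of each included 0. With 1 interval added to each count, as the rule has it, none of these 5 reached a 2-fold rise. In Zfp459 and Zfp738, which both lie in a cluster on chromosome 13, 39.5% and 42.8% of the 31-base words of the TSS window recur in the genome.

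Of the members with a known role, the 4 named here that act on imprints and retroelements had lower HA-Macro counts at 12 hours than at 3 hours, with the interval of Zfp57 reaching 0.00. Zfp57, which protects methylated imprint control regions, had counts of 4, 18, 16 and 8 in the no-Dox, 3 h, 6 h and 12 h libraries (log2 of 12 over 3 hours -1.27, -2.68 to 0.00). Zfp445, which acts with it, held 9, 23, 11 and 8 (-1.62, -2.99 to -0.41). Zfp568, the repressor of a placental Igf2 transcript, held 7, 39, 25 and 11 (-1.92, -3.04 to -0.93). Zfp809, which silences proviruses in ES cells, held 6, 25, 9 and 12 (-1.16, -2.28 to -0.11). All 4 were at their highest count at 3 hours, and so were the medians of the Zfp genes and of the other genes. The upper quartile of the 12 over 3 h change over all 318 Zfp genes was -0.42, so a fall was the rule in the family and not particular to these 4. As shares of the library, the 12 h levels of 0.466, 0.466, 0.641 and 0.700 p.p.m. compare with no-Dox levels of 0.351, 0.791, 0.615 and 0.527 p.p.m. in the same order, and those of all but Zfp445 were higher at 12 hours. Zfp568 also had high HA-H3.3, with 2.55 p.p.m. at 3 hours and 6.73 p.p.m. at 6 hours, against 0.637 and 1.06 p.p.m. in Zfp445 and 0.796 and 2.31 p.p.m. in Zfp57.

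Among regulators of transcription and RNA the same order of counts was seen, with exceptions. Zfp143, an activator bound at many promoters, held 39 intervals at 3 hours and 14 at 12 hours (-1.58, -2.57 to -0.66). Zfp281, a regulator of pluripotency genes, held 29 and 14 (-1.15, -2.18 to -0.18), Zfp148 33 and 14, Zfp423 44 and 20, and Zfp292 66 and 30. Zfp106, an RNA-binding protein, held 23 and 10. The ratio was smaller in Zfp384, with 29, 27 and 26 intervals at 3, 6 and 12 hours (-0.26, -1.08 to 0.56), and in Zfp335, with 29, 23 and 23 (-0.43, -1.29 to 0.41). Zfp91, Zfp326 and Zfp516 had log2 ratios of -0.84, -0.72 and -0.72, with intervals that included 0. Zfp36, which binds AU-rich mRNA through fingers of another type and had no C2H2 finger, had the highest HA-H3.3 at 6 hours among the members with a known role, at 8.94 p.p.m., and its total MacroH2A2 went from 18 intervals in ES cells to 6 in MEFs (-2.37, -3.99 to -0.97).

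The highest promoter in each library was seldom the same gene. HA-H3.3 was highest at Zfp341 at 3 hours (7.48 p.p.m., 47 intervals) and at Zfp658 at 6 hours (10.96 p.p.m., 114 intervals), where Zfp341 came close (10.6 p.p.m., 110 intervals). Total MacroH2A2 was highest at Zfp316 in ES cells (3.50 p.p.m.) and at Zfp831 in MEFs (1.83 p.p.m.). HA-Macro in ES cells was highest at Zfp292 at 3 hours (4.12 p.p.m.), Zfp553 at 6 hours (2.65 p.p.m.) and Zfp704 at 12 hours (1.81 p.p.m.), and without Dox at Zfp598 (1.76 p.p.m.), a ubiquitin ligase of collided ribosomes. In MEFs, Zfp957 was highest at 3 and 12 hours (1.62 and 1.4 p.p.m.) and Zfp663 at 6 hours (1.77 p.p.m.). Zfp957 held 17, 10 and 27 intervals in the MEF libraries and 8, 8 and 12 in ES cells, and its window is poor in CpG (0.19). Zfp658, the promoter with most H3.3 at 6 hours, held 14 intervals of total MacroH2A2 in ES cells and 1 in MEFs.

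Total MacroH2A2 went against the general fall in few members. The highest MEF over ES ratios among members with 20 or more intervals were at Zfp69 (7 intervals in ES cells, 16 in MEFs, log2 0.41, -0.95 to 1.94), Zfp648 (7 and 14) and Zfp704 (8 and 14), and their intervals include 0. The lowest were at Zfp777 (17 and 4, -2.87, -4.90 to -1.25), Zfp39 (24 and 7, -2.56, -4.02 to -1.30) and Zfp202 (22 and 7, -2.43, -3.90 to -1.16).

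Short words of the promoters (250 bases before to 50 after the TSS, both strands) were compared with all 20601 promoters. CCGGAAG, the core bound by ETS factors such as GABP, was in 66 Zfp promoters (20.8%) against 10.8% of all promoters. The palindrome of NRF1 was in 13 (4.09% against 1.19%), TGACGTCA, the CREB element, in 11 (3.46% against 2.31%) and the YY1 motif in 8 (2.52% against 1.19%). TATAAA was in 34 (10.7% against 13.7%). The word that opens the longer of the known ZNF143 recognition sequences was in 8 Zfp promoters (2.52%) against 0.349% of all promoters, and is not part of any other word searched. It is shown for 4 of these 8, in capitals, because 3 of them lie in 1 cluster on chromosome 7. The gene's own strand is printed, so the word reads as its reverse complement in those 3. They are at chr7:24866880-24866918 (plus strand), chr7:24919144-24919182 (plus), chr7:25055352-25055390 (plus) and chr4:147222535-147222573 (minus), in mm9.
Zfp180: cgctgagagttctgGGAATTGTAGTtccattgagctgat
Zfp235: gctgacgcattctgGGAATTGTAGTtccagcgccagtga
Zfp93: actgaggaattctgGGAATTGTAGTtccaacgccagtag
Zfp933: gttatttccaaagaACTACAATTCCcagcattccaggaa
The match begins between positions -84 and -14 from the TSS in all 8. HA-Macro 12 over 3 hours at these 8 promoters ranged from -0.42 (Zfp1) to -1.91 (Zfp933), with 1 interval added, and their median of -0.75 compares with -0.90 in members without the word. These are descriptions of few genes.

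At the other end of the gene, the last CDS exon of Zfp genes held more of every library than its flanks, most of all total MacroH2A2, and the background library did so least. Over all 318 members the pooled log2 ratio of exon over flanks per kb was 0.62 (0.54 to 0.69) in HA-H3.3 at 3 hours and 0.69 (0.64 to 0.75) at 6 hours. It was 0.93 (0.86 to 1.00) for total MacroH2A2 in ES cells and 0.71 (0.64 to 0.78) in MEFs. HA-Macro in ES cells gave 0.21 (0.14 to 0.28) without Dox and 0.39, 0.32 and 0.30 at 3, 6 and 12 hours, and in MEFs 0.53, 0.43 and 0.46. Other last CDS exons of 800 bp or more (2230 genes) gave 0.73 and 0.61 in the HA-H3.3 libraries, 1.25 and 0.94 for total MacroH2A2, and 0.39 without Dox. In the HA-Macro libraries they lay above the Zfp genes, with 0.75, 0.63 and 0.60 in ES cells and 0.79, 0.75 and 0.74 in MEFs. The related Zbtb, Zscan and Zkscan genes gave 0.82 (0.71 to 0.93) in HA-H3.3 6 h, 0.98 for total MacroH2A2 in ES cells and 0.33 without Dox, so a ratio of this size in HA-H3.3 was not particular to Zfp genes. In the pooled ratios, genes with long exons weigh more in the exon counts, while each gene has the same length of flanks. Pooled ratios therefore mix differences between genes with the contrast inside each gene. The typical Zfp gene had a smaller ratio than the pooled counts. The median over all 318 members was 0.24 in HA-H3.3 6 h (quartiles -0.27 and 0.89), 0.15 in HA-H3.3 3 h, 0.32 and 0.28 for total MacroH2A2 in ES cells and MEFs, and 0.09 without Dox.

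Exon ratios differed between members with and without a KRAB box, and so did those of the background library. Pooled counts of the 134 KRAB members gave 0.59 (0.49 to 0.69) in HA-H3.3 at 6 hours, 0.33 (0.20 to 0.46) at 3 hours and 0.36 (0.23 to 0.49) for total MacroH2A2 in ES cells. Their medians over genes were smaller, at 0.16 (quartiles -0.38 and 0.71), 0.05 and 0.02, and 19 of the 75 with 20 or more intervals in HA-H3.3 6 h were at least 2-fold over their flanks, against 18.6% of all genes tested. Pooled, they had no excess without Dox (-0.06, -0.16 to 0.05) or in HA-Macro of ES cells at 12 hours (-0.00, -0.09 to 0.09). The 184 members without KRAB had pooled ratios of 0.87 in both HA-H3.3 libraries and 1.31 for total MacroH2A2 in ES cells, and 0.45 (0.36 to 0.55) already in the no-Dox library. Their medians over genes were 0.34 and 0.25 in HA-H3.3 at 3 and 6 hours and 0.72 for total MacroH2A2 in ES cells. With the pooled no-Dox ratio subtracted the order of the groups turned in HA-H3.3 at 6 hours, to 0.65 with KRAB and 0.41 without. At 3 hours the values were 0.39 and 0.41, and for total MacroH2A2 in ES cells 0.41 and 0.85. The exons of the second group were shorter (a median of 961 bp against 1488 bp) and, as given above, richer in GC.

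**Figure D2:**
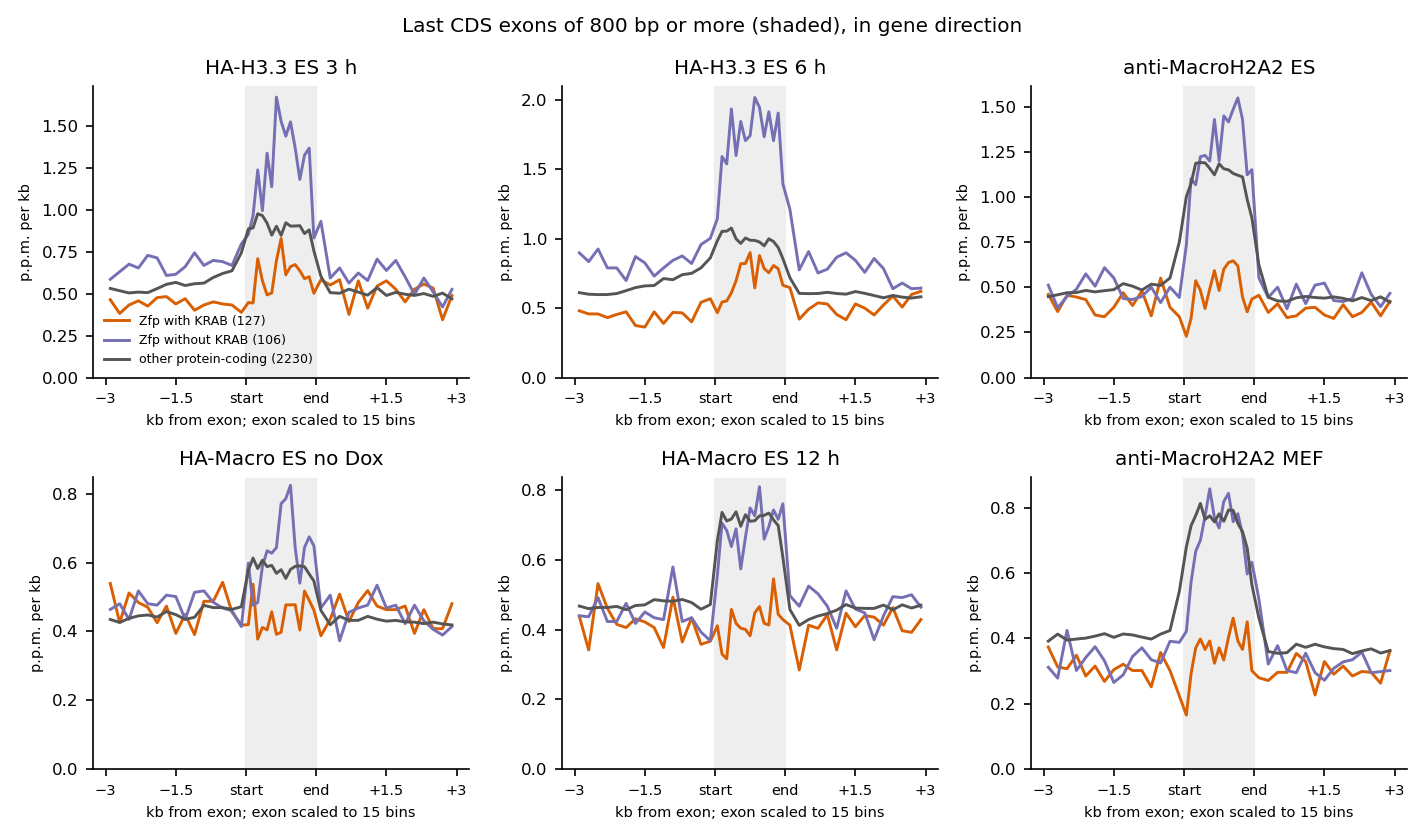
Interval density (p.p.m. of the library per kb) along last CDS exons of 800 bp or more, scaled to 15 bins (shaded), and 3 kb to either side, in the direction of the gene, for Zfp genes with KRAB (127), Zfp genes without (106) and other protein-coding genes (2230), in 6 libraries. Zfp genes without KRAB rise over the exon in each panel, including no Dox, while KRAB members rise over it in HA-H3.3 6 h and lie flat in HA-Macro without Dox and at 12 h.

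By the count of members, 61 of the 210 with 20 or more intervals in HA-H3.3 6 h had exons at least 2-fold over their flanks and 13 were at least 2-fold under. Over all 9855 genes tested 18.6% were over and 12.4% under, but among other exons of 800 bp or more 35.3% were over, a larger share than the 29.0% of the Zfp genes. In HA-H3.3 3 h 37 of 91 were over (21.3% of all genes tested). For total MacroH2A2 75 of 108 were over in ES cells (37.5%) and 68 of 176 in MEFs (23.9%). Without Dox 23 of 218 were over (13.2%), and in HA-Macro of ES cells 58 of 314 at 3 hours (17.5%) and 34 of 284 at 12 hours (15.6%). In HA-Macro of MEFs at 12 hours 54 of 212 were over (19.8%). Other exons of 800 bp or more also gave larger shares in HA-H3.3 3 h (43.8%), total MacroH2A2 in MEFs (42.3%) and each HA-Macro library named here (18.9 to 30.6%), and 67.3% for total MacroH2A2 in ES cells, against 40.7, 38.6, 10.6 to 25.5 and 69.4% of the Zfp genes. Members pass the minimum partly through high exons, which is why the medians above are given over all members.

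Since Zfp exons are long and GC moves with the ratio, they were set beside other last CDS exons of 800 bp or more in 3 classes of GC. Across members the ratio rose with exon GC in every library (Pearson's r 0.31 over 210 genes in HA-H3.3 6 h, 0.54 over 91 in HA-H3.3 3 h, 0.59 over 108 and 0.64 over 176 for total MacroH2A2 in ES cells and MEFs, and 0.43 over 218 without Dox; Spearman's rho 0.32, 0.51, 0.54, 0.66 and 0.43). These points share a library, and neighbours share sequence. The part of GC in the exon results was not tested beyond these classes.

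Between 45 and 55% GC, pooled counts of 84 Zfp exons stood above those of 815 other exons in HA-H3.3 at 6 hours and not in MacroH2A2. The others leave out the Zbtb, Zscan and Zkscan genes. The classes were not matched for distance to the TSS. Of all 318 Zfp exons, 279 lay more than 2600 bp from it, against 1192 of all 2230 others. Flanks of an exon near its TSS can take in promoter signal, where HA-H3.3 is high. Repeated 31-base words made up 9.5% of all Zfp exons and 20.8% of the others. The part of either in these differences was not tested. HA-H3.3 6 h gave 0.70 (0.59 to 0.81) over Zfp exons against 0.30 (0.26 to 0.34) over the others. HA-H3.3 3 h gave 0.45 (0.29 to 0.60) against 0.37 (0.32 to 0.43). Total MacroH2A2 in ES cells was lower over Zfp exons, at 0.42 (0.27 to 0.57) against 0.65 (0.60 to 0.70), and HA-Macro of ES cells at 12 hours was 0.08 (-0.03 to 0.19) against 0.44 (0.41 to 0.48). The no-Dox values were 0.02 (-0.12 to 0.16) and 0.13 (0.09 to 0.18). The 49 KRAB members of this class gave 0.68 (0.53 to 0.83) in HA-H3.3 6 h and -0.09 (-0.27 to 0.09) without Dox.

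In the GC-poor class, under 45%, the 105 Zfp exons gave 0.17 (0.04 to 0.30) in HA-H3.3 6 h against 0.03 (-0.04 to 0.11) in 632 others, and -0.24 (-0.41 to -0.07) against 0.02 (-0.06 to 0.10) for total MacroH2A2 in ES cells. HA-Macro of ES cells at 12 hours gave -0.08 (-0.19 to 0.03) against 0.25 (0.20 to 0.29). The 72 KRAB members among them gave 0.07 (-0.09 to 0.24) in HA-H3.3 6 h. At 55% GC or more, 44 Zfp exons exceeded 783 others in each library shown for the class. HA-H3.3 6 h gave 1.54 (1.45 to 1.63) against 0.82 (0.79 to 0.85), total MacroH2A2 in ES cells 2.17 (2.04 to 2.30) against 1.70 (1.67 to 1.73), and no Dox 1.02 (0.86 to 1.17) against 0.85 (0.81 to 0.88). In this class the background library was itself 2.02 times higher over the Zfp exon than over its flanks.

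**Figure D3:**
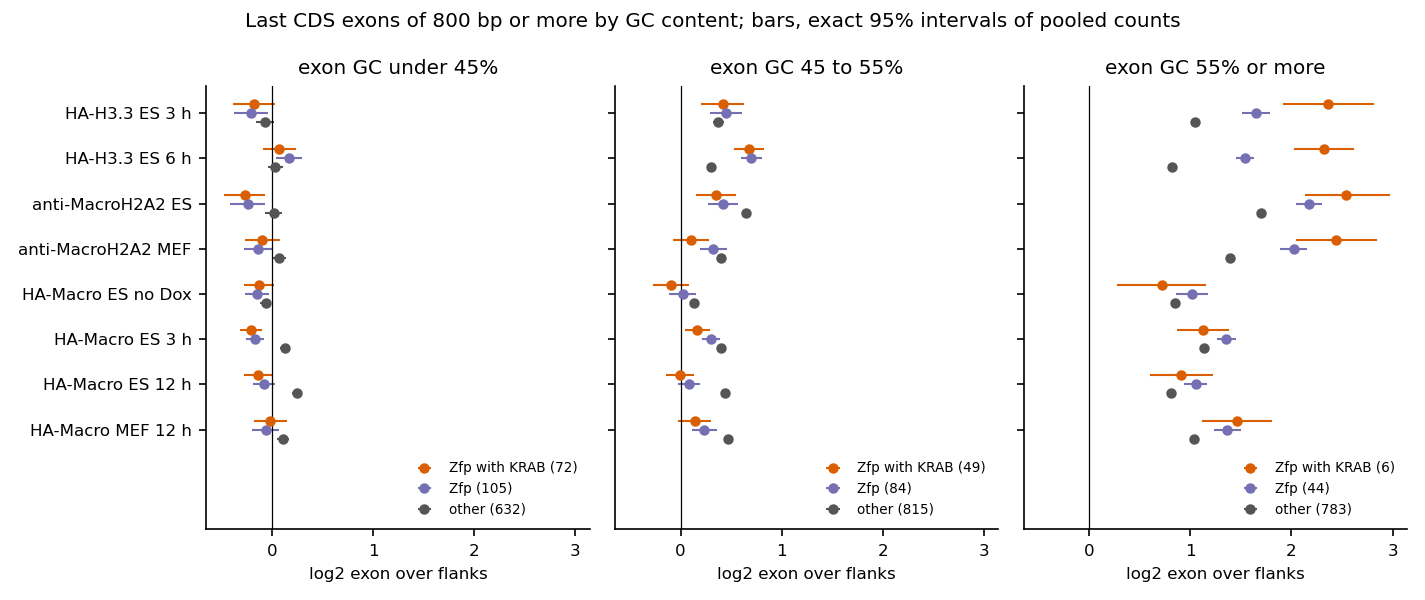
Pooled log2 ratio of last CDS exon over flanks (exact 95% intervals) for exons of 800 bp or more, in 3 panels by exon GC, for Zfp genes with KRAB, all Zfp genes and other protein-coding genes in 8 libraries. Between 45 and 55% GC, Zfp exons lie to the right of other exons in HA-H3.3 6 h (0.70 against 0.30) and to the left of them in HA-Macro ES 12 h (0.08 against 0.44). The classes are not matched for distance to the TSS.

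The 5 highest exon ratios in HA-H3.3 6 h, ranked with 1 interval added to each count, included 4 GC-rich exons. The ratios given here have none added, which puts Zfp30 just above Zfp777. Zfp629 (ENSMUSG00000045639), with 19 fingers, has its last CDS exon at chr7:134753549-134756076 on the minus strand (2528 bp, 59.1% GC). Its exon and its 3 kb of flanks held 70 and 10 intervals in HA-H3.3 3 h, 230 and 13 in HA-H3.3 6 h, 62 and 13 for total MacroH2A2 in ES cells, 44 and 19 in MEFs, and 29 and 16 without Dox. HA-Macro in ES cells gave 73 and 33, 57 and 31, and 49 and 28 at 3, 6 and 12 hours, and in MEFs 21 and 10, 19 and 11, and 27 and 19. The exon was above its flanks per kb in all 11 libraries, and by far the most in HA-H3.3 at 6 hours, where the ratio was 21.0-fold (log2 4.39, 3.59 to 5.32) against 1.10 (0.18 to 2.08) without Dox. Its promoter was unremarkable, with 20 intervals in the same library (1.92 p.p.m.). As the 5 exons were picked for their ratio in HA-H3.3 6 h, the lead of that library in them carries no further weight. Zfp777 held 117 and 21 intervals in HA-H3.3 6 h (3.82, 3.14 to 4.56) and 18 and 12 without Dox (1.92). Zfp787 held 58 and 12 (3.77) and Zfp13 80 and 18 (3.66), with 2.00 and 1.69 without Dox. In these 3 genes total MacroH2A2 of ES cells was high as well, with 2.72, 3.50 and 3.37. Zfp30, a KRAB member of 52.7% GC, held 39 and 6 (3.84, 2.59 to 5.37) against 11 and 12 without Dox (1.01, -0.31 to 2.32) and 16 and 9 for total MacroH2A2 in ES cells (1.97).

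Zfp11, with 21 fingers in an exon of 1931 bp and 49.8% GC, had its highest exon ratios in HA-H3.3. It was chosen for high H3.3 after its values were seen, so this order of libraries carries no further weight. It held 16 and 4 intervals at 3 hours (2.64, 1.00 to 4.67) and 83 and 17 at 6 hours (2.92, 2.16 to 3.77). Total MacroH2A2 gave 8 and 12 in ES cells (0.05, -1.45 to 1.46) and 11 and 11 in MEFs (0.64, -0.71 to 1.98), and the HA-Macro libraries gave log2 ratios between -0.63 and 0.22, the no-Dox library being the highest of them. Zfp157, which lies on the same chromosome and was shown above for contrast, held 3 and 19 in HA-H3.3 6 h (-1.53, -3.93 to 0.23) and 8 and 13 without Dox.

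The 5 lowest ratios were all at exons under 600 bp. Zfp41 held 1 interval in an exon of 594 bp against 78 in its flanks in HA-H3.3 6 h (-3.95, -9.27 to -1.43), and this exon starts 1522 bp from the TSS, where the same library had 73 intervals. Zfp850 (0 and 27), Zfp692 (0 and 22), Zfp217 (0 and 58) and Zfp646 (0 and 62) had no interval in the exon. The last CDS exons of Zfp217 and Zfp646 are 107 and 98 bp long and encode none of their 8 and 27 fingers, so their ratios do not describe finger-coding DNA.

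The members with a known role whose exon ratios are given here had no common pattern over the exon. Ratios of Zfp148, Zfp36, Zfp91 and Zfp292 are not given. Of the imprint and retroelement group, Zfp568 gave 0.59 (-0.16 to 1.33) and Zfp445 -0.05 (-1.55 to 1.36) in HA-H3.3 6 h, while Zfp57 held 28 and 43 intervals at 3 hours (0.83, 0.09 to 1.55) and 52 and 146 at 6 hours (-0.04, -0.53 to 0.42). Zfp281 was lower over its exon in HA-H3.3 6 h (29 and 61, -0.91, -1.60 to -0.25) and higher for total MacroH2A2 in ES cells (17 and 7, 1.44, 0.10 to 2.96), and its exon starts 385 bp from the TSS. In Zfp809, Zfp143, Zfp423, Zfp516, Zfp207, Zfp106, Zfp335, Zfp384 and Zfp326 the last exon is under 500 bp and encodes no finger.

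Clustered genes had more H3.3 over the last exon than single genes at 6 hours, and the difference rested on a pair of clusters. Pooled over 125 clustered genes HA-H3.3 6 h gave 0.89 (0.81 to 0.97), and over 113 single genes 0.45 (0.35 to 0.54), a difference of 0.44. Without the clusters numbered 6.1 and 7.8 (chromosome and order along it) the difference was 0.09, without 7.8 alone 0.24, without Zfp629 alone 0.31, and between the medians of the genes 0.18. Among exons more than 2600 bp from the TSS it was 0.72, and after the no-Dox difference was taken off it was 0.61. At 3 hours it was 0.09. Total MacroH2A2 of ES cells gave 0.84 in clustered and 1.03 in single genes, and the no-Dox library 0.15 and 0.31. With the no-Dox ratio subtracted the difference in total MacroH2A2 was -0.03. The groups also differed in the exons measured. Last exons had a median of 1421 bp and 44.5% GC in clustered genes, against 807 bp and 52.1% in single genes. They reached 800 bp in 111 clustered and 57 single genes, and held a larger share of the fingers in clustered genes. Among exons of 800 bp or more the difference in HA-H3.3 6 h was 0.39. The part of GC and finger content in it was not tested.

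The 15 clusters ranged from 2.62 to -0.46 in HA-H3.3 6 h. Cluster 6.1 (chr6:47780866-48036592) has 7 members, of which Zfp212, Zfp282, Zfp746, Zfp777 and Zfp956 were measured, with exons of 60.4% GC and no KRAB match. It gave 2.62 (2.28 to 2.96) in HA-H3.3 6 h, 2.27 for total MacroH2A2 in ES cells and 1.08 (0.55 to 1.59) without Dox. Its exon ratios in HA-H3.3 6 h ran from 1.35 in Zfp746 to 3.82 in Zfp777. Cluster 7.8 (chr7:134376575-135020342, 10 genes, 59.6% GC) gave 1.88 (1.70 to 2.06), 1.45 and 0.79. Within it Zfp629 (4.39), Zfp689 (3.22) and Zfp771 (2.79) stood high, Zfp553 and Zfp668 gave 1.03 and 1.37, and Zfp768 gave 0.09. Zfp688, Zfp747 and Zfp764 lay between 0.53 and 0.77, and Zfp646 held 0 intervals in its exon and 62 in its flanks. Zfp771 has an exon of 71.7% GC and stood at 2.36 without Dox.

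The order of the clusters in HA-H3.3 did not follow GC throughout. Cluster 7.1 (6 genes, Zfp865 among them, 64.3% GC) had the richest exons and gave 0.98 (0.77 to 1.19) in HA-H3.3 6 h, below its 2.20 (1.88 to 2.53) for total MacroH2A2 and its 1.37 (0.96 to 1.78) without Dox. Cluster 7.6, with 14 genes that include Zfp30 and Zfp568, gave 0.78 (0.51 to 1.05) at 48.7% GC, against -0.10 (-0.47 to 0.26) without Dox. The 2 largest clusters are poor in GC. Cluster 17.1 (chr17:21145905-22561189, 16 genes, 14 with KRAB, 36.8% GC) moved from -0.36 (-0.86 to 0.11) at 3 hours to 0.42 (0.06 to 0.78) at 6 hours, with -0.31 for total MacroH2A2 and -0.19 without Dox. Cluster 13.1 (chr13:67162106-67914753, 17 genes, all with KRAB, 39.0% GC) gave -0.41 (-0.90 to 0.06) at 3 hours and -0.39 (-0.80 to -0.01) at 6 hours. Exons of one cluster resemble each other, and the part of reads that match several of them was not tested cluster by cluster.

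**Figure D4:**
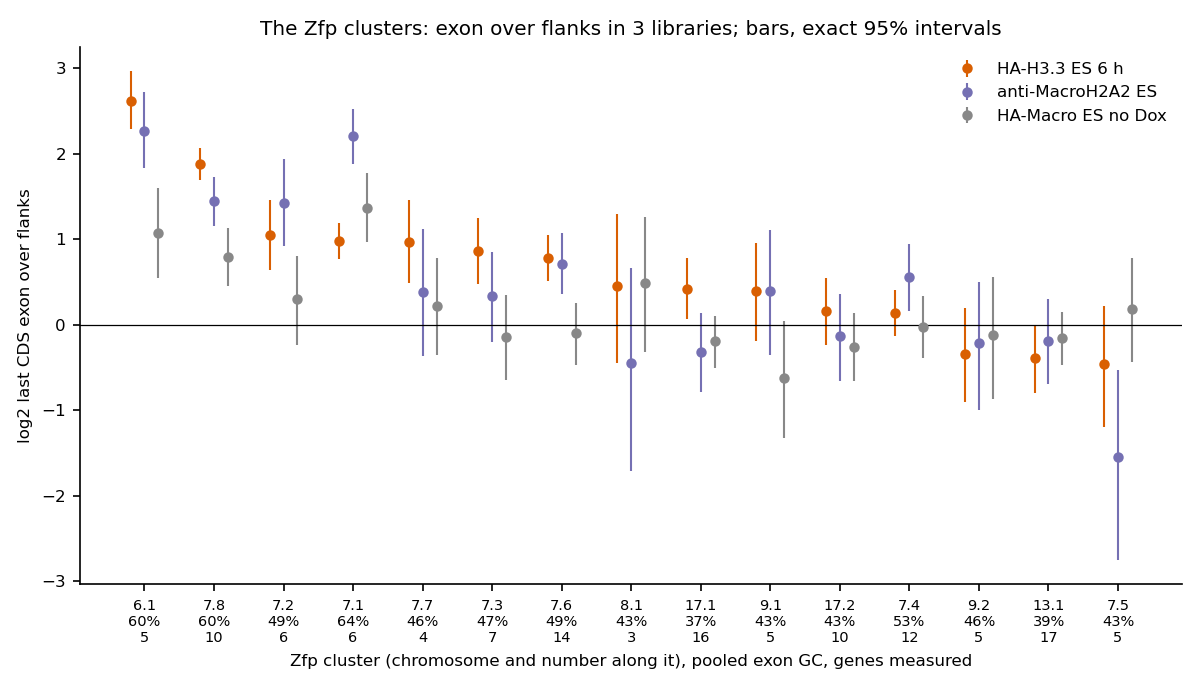
Pooled log2 ratio of last CDS exon over flanks in HA-H3.3 ES 6 h, anti-MacroH2A2 ES and HA-Macro ES no Dox for the 15 Zfp clusters, ordered by the first, with exact 95% intervals and with pooled exon GC and the number of genes measured under each. Clusters 6.1 (2.62) and 7.8 (1.88) stand above the rest in HA-H3.3 6 h, and cluster 7.1 is higher in anti-MacroH2A2 (2.20) than in HA-H3.3 (0.98).

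A list of 16 genes was read at their promoters, holding co-repressors with which KRAB zinc fingers act and genes of H3.3 deposition and of histone variants. These were Trim28, Setdb1, Daxx, Atrx, Cbx1, Cbx3, Cbx5, H3f3a, H3f3b, Hira, H2afy, H2afy2, Hells, Uhrf1, Dnmt1 and Chd4. The list was chosen with earlier results of these data known, so its values are a description only. Of 14 with 20 or more intervals in HA-Macro of ES cells, 9 fell at least 2-fold from 3 to 12 hours and 0 rose, where 31.7% of all genes tested fell and 2.78% rose. The median log2 was -1.08 over the 16, Atrx on chromosome X included. Other protein-coding genes with a promoter CpG ratio of 0.6 or more had a median of -0.91. The list was not matched to them for CpG. Uhrf1, which maintains DNA methylation with Dnmt1, went from 38 to 6 intervals (-2.76, -4.29 to -1.51), and Setdb1, the methyltransferase, from 22 to 4 (-2.56, -4.56 to -1.0). Trim28, the corepressor, had 9 intervals in the no-Dox library and 37, 26 and 19 in the 3, 6 and 12 h libraries, while Chd4, of the NuRD complex, held 24, 41 and 27. Only 7 of the 16 reached 20 intervals for total MacroH2A2, of which 6 were at least 2-fold lower in MEFs than in ES cells and 0 higher, where 43.2% and 0.829% of all genes tested were.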

How the data were processed

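The deposited files list one genomic interval per aligned read. The authors aligned reads to mm9 (per the labels' processing notes, with Bowtie 1.0) and extended them, so the deposited coordinates (unit other, with no strand or score) are 400 bp long for HA-H3.3 and anti-MacroH2A2 and 150 bp for HA-Macro, although a single length of 150 bp is stated in the methods. An interval listed more than once was counted once, and midpoints were counted per window, as p.p.m. of the distinct autosomal intervals, which numbered 6280929 to 19279472 per library. Of 24021 tiles of 100 kb, the 240 with most no-Dox signal were discarded. The steps ran in Python 3.11.15 with numpy 2.4.6, pandas 2.3.3 and scipy 1.17.1, and were tested on simulated data. Exact 95% intervals come from binomial counts. Changes at single genes were called at 2-fold with 20 or more intervals and 1 interval added to each count.

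Named genes are the 5 highest and 5 lowest exon ratios in HA-H3.3 6 h and HA-Macro changes in ES cells, the 3 highest and 3 lowest MEF over ES ratios, the highest promoter of each library, and members with a known role. Zfp638, of that list, was not analysed here. The members, lists and motifs were chosen with earlier results of these data known. KRAB boxes and fingers were read from translated GENCODE vM1 transcripts, not from RefSeq proteins as first planned, and sequences from the mm9 genome. Alternatives varied the windows, filters, flanks, scaling and members left out.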

Additional observations from a re-analysis of the deposited data

How the results depend on the processing

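All values are log2 ratios, and the changes and promoter levels are medians over genes. Of 141 combinations of a result and an alternative, 94 moved the value by no more than the margin to either side of the pooled-count interval. Another 47 moved it further and 0 reversed it. For results that are medians over genes, this interval is that of the pooled counts and not of the median. The split therefore cannot show whether a median moved beyond its own uncertainty. With windows of 300 bp the Zfp over other level in HA-H3.3 6 h was 0.49 and the 12 over 3 h change of HA-Macro -0.74 in ES cells and -0.56 in MEFs, and with 1000 bp they were 0.22, -0.77 and -0.25. The start of the longest-CDS transcript gave a level of 0.19 and symbols with any suffix 0.25. With 20 or more intervals the levels were 0.040 (HA-H3.3 6 h) and 0.00 (total MacroH2A2, ES), the MEF over ES change -1.14 and the MEF 12 over 3 h change -0.072. For the levels this minimum cuts on the very counts compared. Adding 5 intervals gave -0.72 in ES cells and -0.62 in MEFs, and the 6 h library in place of 3 h gave -0.37 in ES cells.

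For exon over flanks, in the order HA-H3.3 3 h and 6 h, total MacroH2A2 in ES cells and MEFs, HA-Macro ES 3 h and 12 h and MEF 12 h, the medians over genes were 0.15, 0.24, 0.32, 0.28, 0.13, 0.13 and 0.28, and with the no-Dox ratio subtracted 0.40, 0.48, 0.71, 0.49, 0.18, 0.081 and 0.25. Without flank bases near a TSS or in a CDS exon the first 3 and HA-Macro ES 3 h were 0.70, 0.81, 1.03 and 0.45. Exons of 800 bp or more gave 0.91 in HA-H3.3 6 h, and flanks 1000 to 3000 bp away 0.39 in HA-Macro MEF 12 h. Further alternatives were chosen after seeing the data. HA-H3.3 6 h was 0.63 without Zfp629, and with exons over 2600 bp from the TSS or with under 5% repeated 31-base words it was 0.77 and 0.78, where total MacroH2A2 in ES cells was 0.83 and 1.16. The clustered minus single difference in HA-H3.3 6 h was 0.18 between medians, 0.61 with no Dox subtracted, 0.31 without Zfp629, 0.24 without cluster 7.8, 0.088 without clusters 6.1 and 7.8, and 0.72 with exons over 2600 bp from the TSS. For total MacroH2A2 in ES cells it was -0.39 without those clusters. The causes were not tested.

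No paired analysis was possible because each condition had 1 library and no test was run. Depth limits single genes most in the MEF libraries, where the median Zfp promoter held 4 to 6 HA-Macro intervals.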
